A study of Mus musculus with 12 samples.

Results

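Fibroblast growth factor (FGF) receptors, their Klotho co-receptors and the transporters that carry phosphate across the cell membrane were followed in isolated mouse cardiomyocytes. They were 9 genes, taken by symbol for their place in uremic heart disease: Fgfr1, Fgfr2, Fgfr3, Fgfr4, Kl, Klb, Slc20a1, Slc20a2 and Xpr1. Earlier results of these data were known when they were chosen. All 9 were found among the 22794 genes of the deposited table. The study compared wild-type C57BL6 mice in 4 groups of 3 libraries. Sham-operated mice received saline or JV101, and mice with 5/6 nephrectomy (NX, removal of most of the kidney mass, a model of chronic kidney disease) received saline or JV101. All were taken 16 weeks after surgery, and polyadenylated RNA was sequenced from heart cells labelled cardiomyocytes. The series is titled as a test of telomere recapping by gene therapy in cardiorenal syndrome. The sources used here do not give what JV101 carries, its dose or the age of the mice. Nor do they say whether the 3 libraries of a group came from separate mice, so each p-value measures spread among these libraries, which may be technical.

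FGF receptors are tyrosine kinases that signal through ERK, AKT and phospholipase C gamma. Most FGFs act locally with heparan sulfate as cofactor, whereas the hormone FGF23, made by bone, binds receptors together with alpha-Klotho (Kl) in the kidney to lower phosphate reabsorption, and FGF21 needs beta-Klotho (Klb). In kidney failure FGF23 and phosphate in blood rise. FGFR4 has been described as the receptor through which FGF23 acts on cardiac myocytes without Klotho, by way of phospholipase C gamma, calcineurin and NFAT. Phosphate enters most cells through the sodium-dependent carriers encoded by Slc20a1 and Slc20a2 and leaves through the exporter encoded by Xpr1.

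Libraries held 26407125 to 33834238 counts. The 13 mitochondrially encoded protein genes took 36.7% to 69.0% of them, so the depth left for nuclear genes differed between libraries. The labelled cell type was checked against 9 cardiomyocyte markers, whose summed level was 33778 to 58360 CPM (counts scaled to library size with TMM factors) over the 12 libraries. The libraries also held markers of other heart cells: 9 fibroblast markers summed to 221 to 1238 CPM and endothelial markers to 291 to 1642 CPM. Within sham JV101 alone the fibroblast sum ran from 221 to 1161 CPM and the endothelial sum from 291 to 1493. In such bulk samples, fewer cells of a type and less RNA per cell cannot be told apart.

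The phosphate importer Slc20a2 was the most abundant of the 9 genes per length, and Fgfr1 was the most abundant FGF receptor. Fgfr4 and both Klotho genes lay at the limit of detection. On the length-corrected FPKM scale, Slc20a2 averaged 24.3 ± 9.30 (SD, n = 12), which placed it at the 94.5th percentile of all genes in the table. Fgfr1 averaged 5.36 ± 2.40 FPKM, Xpr1 3.78 ± 0.929, Slc20a1 2.97 ± 0.622 and Fgfr3 2.86 ± 1.40. These 4 genes stood between the 71.7th and the 80.7th percentile. Fgfr2, at 0.0988 ± 0.0682 FPKM, stood well apart below them.

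The order was tested within each library by FPKM. Slc20a2 was above Fgfr1 in 12 of 12 libraries, with a median ratio of 4.36. Fgfr1 was above Xpr1 in 10 of 12 and Xpr1 above Slc20a1 in 10 of 12. Slc20a1 and Fgfr3 had no fixed order, with Slc20a1 higher in 6 of 12 libraries. Fgfr3 exceeded Fgfr2 in all 12, with a median ratio of 37.3. Among the 4 receptors' summed FPKM, Fgfr1 made up a median of 65.9% (53.5% to 72.9%) and Fgfr3 32.7% (24.9% to 44.1%). Fgfr2 gave 0.820% (0.144% to 2.93%) and Fgfr4 0.201% (0% to 0.822%). Among the 3 transporters, Slc20a2 made up 77.5% (69.4% to 83.1%), Xpr1 12.5% and Slc20a1 10.9% (5.90% to 13.6%).

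**Figure D1:**
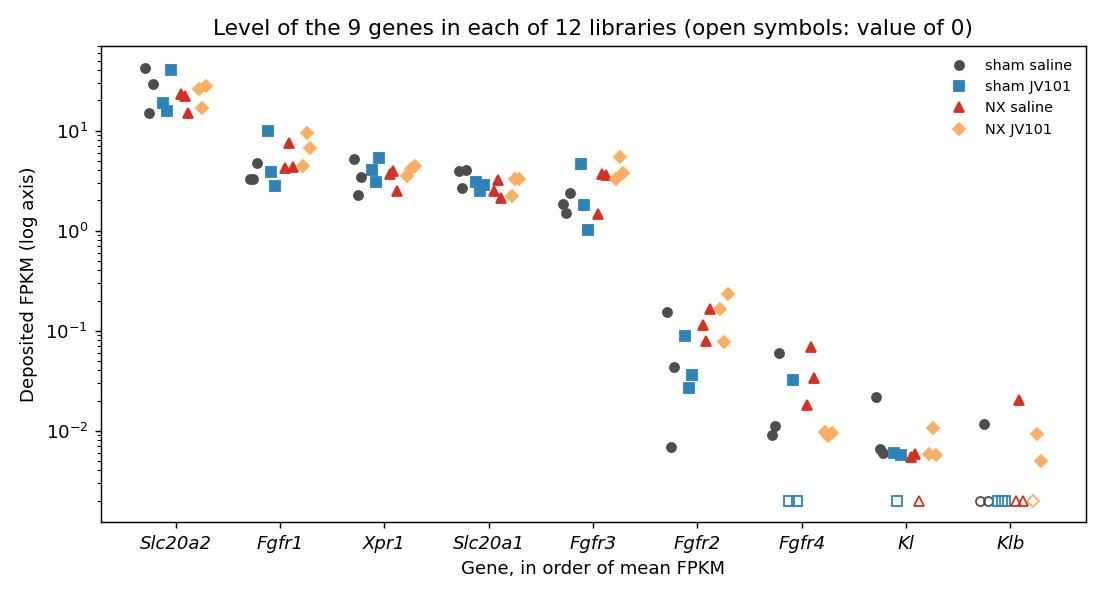
Deposited FPKM of the 9 genes in each of the 12 libraries, on a log axis, by group. Slc20a2 lies above the other genes in all 12 libraries, and Fgfr4, Kl and Klb average lowest; open symbols are values of 0.

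Fgfr4, the receptor proposed for FGF23 in heart cells, had 1, 1 and 6 counts in the sham saline libraries and 0, 3 and 0 with sham JV101. It had 2, 7 and 3 counts in NX saline and 1, 1 and 1 in NX JV101. The 26 counts in all were too few for it to enter the tests, and 10 of 12 libraries held 3 counts or fewer, the limit that a count of 0 allows. That limit corresponded to 0.0707 to 0.173 CPM, depending on the library.

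Kl, alpha-Klotho, had 4, 1 and 1 counts in sham saline, 1, 0 and 1 with sham JV101, 1, 1 and 0 in NX saline and 1, 2 and 1 in NX JV101. Klb, beta-Klotho, had 0, 2 and 0, then 0, 0 and 0, then 0, 4 and 0, and then 0, 2 and 1 counts in the same groups. Each had 11 of 12 libraries at 3 counts or fewer, and Klb was listed at 0 in 8. Group differences in Fgfr4, Kl and Klb were not tested. None of the 9 genes was at 3 counts or fewer in every library, and 6 passed the filter on low counts.

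In each of the 7 comparisons fitted, 0 of the 6 tested genes passed an adjusted p of 0.05 by edgeR's quasi-likelihood test with Benjamini-Hochberg adjustment. The percentage of the 14412 tested genes that passed was 0 in each comparison. DESeq2 also called 0 of the 6. At an unadjusted p under 0.05, NX saline against sham saline gave 1 of 6 members against 3.64% of all genes, and sham JV101 against sham saline gave 1 of 6 against 1.7%. NX JV101 against NX saline gave 0 of 6 against 2.39%, and NX JV101 against sham JV101 gave 0 of 6 against 2.07%. The interaction of surgery and injection gave 0 of 6 against 1.78%. Averaged over the injections, NX against sham gave 2 of 6 against 4.36%, and averaged over surgeries JV101 against saline gave 1 of 6 against 2.28%. The members' median log2 fold change in NX saline against sham saline was 0.23, against 0.02 for all genes tested. It lay between 3 tested receptors, all positive, and 3 transporters, all negative, and so describes no shared direction. In NX JV101 against NX saline the median was −0.03, against 0.01, with 3 members up and 3 down.

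**Figure D2:**
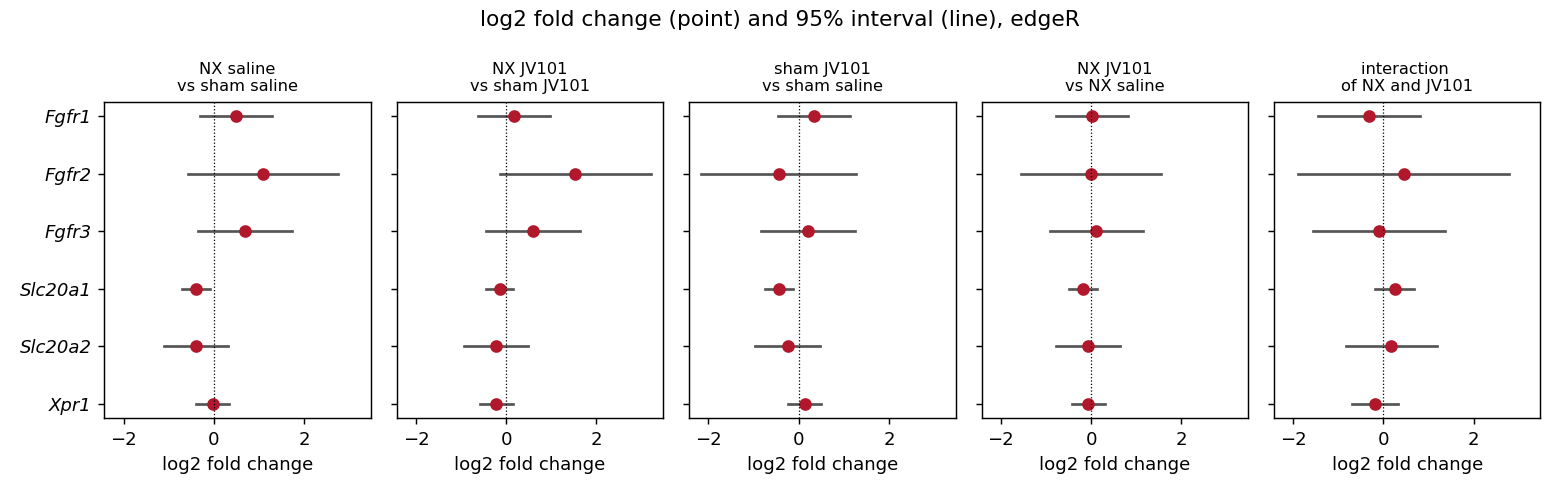
log2 fold changes of the 6 tested genes with 95% intervals by edgeR in 5 of the 7 comparisons. Slc20a1 has intervals below 0 in NX saline and in sham JV101, each against sham saline.

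Fgfr1 had the highest mean FPKM of the FGF receptors in these libraries, which hold RNA of several cell types. Its level was 13.7, 25.8 and 22.3 CPM in sham saline, 40.1, 24.6 and 13.1 with sham JV101, 22.2, 33.1 and 31.0 in NX saline and 23.3, 37.7 and 26.2 in NX JV101. The 4 groups overlapped, and the lowest and the highest libraries were both in sham JV101. NX saline against sham saline gave a log2 fold change of 0.49 (SE 0.37, 95% interval −0.31 to 1.29, adjusted p = 0.994 by edgeR). Without sham saline library 1 it was 0.26. NX JV101 against NX saline gave 0.02 (SE 0.36), with an interval of −0.78 to 0.81 that holds changes of either sign.

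Fgfr3, a receptor known mainly for restraining bone growth, read 7.09, 10.7 and 10.1 CPM in sham saline, 17.4, 10.3 and 4.28 with sham JV101, 6.88, 14.8 and 23.2 in NX saline and 15.5, 19.5 and 13.3 in NX JV101. All 3 NX JV101 libraries were above all 3 sham saline libraries, as was so for 10.2% of the tested genes, while NX saline overlapped both groups. NX JV101 against sham saline changes surgery and injection together and was not fitted. In NX saline against sham saline the log2 fold change was 0.69 (SE 0.48, 95% interval −0.36 to 1.73, adjusted p = 0.994). It was 0.24 without NX saline library 3 and 1.03 without NX saline library 1. Averaged over the injections, NX against sham gave 0.64 (SE 0.34, interval −0.09 to 1.38, unadjusted p = 0.0814).

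Fgfr2, whose isoforms serve epithelial and mesenchymal tissues, was counted only 1 to 39 times in a library. Its level was 0.691, 0.0577 and 0.217 CPM in sham saline, 0.383, 0.181 and 0.180 with sham JV101, 0.634, 0.374 and 1.25 in NX saline and 0.920, 0.330 and 0.972 in NX JV101. The 4 lowest libraries were all sham, an order whose share among all tested genes was not counted. The NX groups overlapped the sham groups through sham saline library 1 and sham JV101 library 1. Averaged over injections, NX against sham gave 1.31 (SE 0.54, 95% interval 0.13 to 2.49, unadjusted p = 0.0323, adjusted p = 0.860 by edgeR). On the log2(FPKM + 1) scale, which compresses low genes, the same difference was 0.10.

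Fgfr1 and Fgfr3 moved with markers of non-muscle cells. The fibroblast markers summed to 356 to 669 CPM in sham saline, 221 to 1161 with sham JV101, 512 to 780 in NX saline and 501 to 1238 in NX JV101. Over the 12 libraries, Fgfr1's log2 CPM followed the summed fibroblast markers with r = 0.942 (permutation p = 1e-05, the smallest these permutations can give, adjusted p = 0.00057) and rho = 0.902 (permutation p = 0.00014). Without the 2 libraries farthest from the median, r was 0.913. After group means were removed it was 0.953. Fgfr3 followed endothelial markers with r = 0.885 (permutation p = 0.00021, adjusted p = 0.00142), rho = 0.874 (permutation p = 0.00057) and r = 0.723 without the 2 farthest libraries. Fgfr1 also followed 8 macrophage markers (r = 0.931, permutation p = 6e-05, adjusted p = 0.000684). Fgfr3 also followed the fibroblast markers (r = 0.859, permutation p = 0.00037, adjusted p = 0.00176). Against the cardiomyocyte markers, r was −0.865 for Fgfr1 and −0.862 for Fgfr3 (permutation p = 0.00024 and 0.00036). These relations belong to a family of 57, over which p was adjusted. The part of these markers in the receptor differences between groups was not tested.

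Slc20a1 encodes the sodium-dependent phosphate importer also known as a retrovirus receptor. Its level was 20.7, 25.8 and 23.6 CPM in sham saline, 15.5, 19.8 and 16.6 with sham JV101, 16.3, 17.8 and 19.1 in NX saline and 14.4, 16.4 and 16.0 in NX JV101. All 3 sham saline libraries lay above all 9 others in TMM-scaled CPM, a separation that 0.604% of the 14412 tested genes showed. In the deposited FPKM, whose total includes mitochondrial reads, it was lost: sham saline read 3.97, 2.65 and 4.06, sham JV101 3.04, 2.50 and 2.83, NX saline 2.51, 3.23 and 2.14 and NX JV101 2.21, 3.28 and 3.25. On that scale sham saline library 2 lay below 5 of the other 9 libraries. NX saline gave 17.7 ± 1.43 (SD, n = 3) against 23.4 ± 2.54 in sham saline, a log2 fold change of −0.40 (SE 0.14, 95% interval −0.71 to −0.09, unadjusted p = 0.0152, adjusted p = 0.994 by edgeR). In CPM the groups did not overlap, as was the case, with NX lower, for 5.92% of genes tested. Sham JV101 gave 17.3 ± 2.24, a difference of −0.44 from sham saline (SE 0.14, interval −0.74 to −0.13, unadjusted p = 0.00945, adjusted p = 1.00). There, too, the groups did not overlap in CPM, as for 2.07% of genes in the same direction.

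These 2 comparisons share the sham saline libraries. The interaction of surgery and injection for Slc20a1 was 0.25 (SE 0.20, 95% interval −0.18 to 0.69, unadjusted p = 0.229), and NX JV101 against NX saline was −0.18 (SE 0.14, interval −0.49 to 0.12). Leaving out 1 library at a time gave −0.48 to −0.31 for NX saline against sham saline and −0.54 to −0.35 for sham JV101 against sham saline. On the log2(FPKM + 1) scale the second difference was −0.25. Slc20a1 gave no adjusted p under 0.05 with the fibroblast markers (r = −0.137, rho = −0.0769, permutation p = 0.672 and 0.817, adjusted p = 0.856) or the cardiomyocyte markers (r = 0.217, rho = 0.245, permutation p = 0.496 and 0.442, adjusted p = 0.744). The 8 mural (vessel wall) markers gave r = −0.269 (permutation p = 0.4, adjusted p = 0.67), and −0.722 without the 2 farthest libraries. The endothelial markers gave r = −0.135 (permutation p = 0.676, adjusted p = 0.856), and −0.561 without the 2 farthest. After group means were removed, r was 0.145 with the mural and 0.207 with the endothelial markers.

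The mesothelial and lymphocyte markers ran closer to Slc20a1 over all 12 libraries. The 7 mesothelial markers summed to 64.0 to 79.3 CPM in sham saline against 37.7 to 55.4 with sham JV101. At an unadjusted p under 0.05 by edgeR, 3 of 7 had a lower level in sham JV101, against 1.7% of all genes in either direction. In NX saline, where Slc20a1 was lower than in sham saline, they summed to 56.9 to 115 CPM. Over the 12 libraries Slc20a1 against the mesothelial sum gave r = 0.554 (permutation p = 0.0611, adjusted p = 0.129; rho = 0.608, permutation p = 0.0393), and 0.609 without the 2 farthest libraries. Slc20a1 against the 5 lymphocyte markers gave r = 0.746 (permutation p = 0.00551, adjusted p = 0.264; rho = 0.783, permutation p = 0.00396), and 0.664 without the 2 farthest. The lymphocyte sum was small, at 2.12 to 12.1 CPM in sham saline, 1.14 to 5.47 with sham JV101, 1.77 to 9.80 in NX saline and 0.499 to 1.91 in NX JV101, and 2 of its 5 genes did not pass the filter. That relation comes from a separate family of 48 computed after the data were seen. The part of either cell type in the Slc20a1 differences was not tested.

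Because Slc20a1 was the member that set the sham saline group apart, the 250 bases before its starts are shown, with those of Xpr1, the phosphate exporter, beside them. They come from RefSeq on GRCm38.p6, on the genes' own strand, 5′ to 3′. RefSeq windows were found for 7 of the 9 genes. Capitals mark matches, on either strand, of the E-box motif CACGTG, the cyclic AMP response motif TGACGTCA, the GC box motif GGGCGG, the motif CCAAT, the TATA box motif TATAAA and both heat shock element cores, TTCNNGAA and GAANNTTC.
Slc20a1, chr2:129198523-129198772, plus strand: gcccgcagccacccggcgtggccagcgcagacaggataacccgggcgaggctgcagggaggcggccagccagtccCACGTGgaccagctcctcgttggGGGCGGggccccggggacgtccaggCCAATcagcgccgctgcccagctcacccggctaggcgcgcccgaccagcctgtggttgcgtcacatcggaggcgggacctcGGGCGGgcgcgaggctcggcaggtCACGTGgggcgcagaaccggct
Slc20a1, chr2:129206846-129207095, plus strand: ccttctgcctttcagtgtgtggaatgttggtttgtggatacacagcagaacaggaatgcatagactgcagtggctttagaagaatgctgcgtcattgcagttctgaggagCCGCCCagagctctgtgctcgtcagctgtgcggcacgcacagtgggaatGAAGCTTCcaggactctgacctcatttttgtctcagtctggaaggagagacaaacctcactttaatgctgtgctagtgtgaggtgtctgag
Xpr1, chr1:155417445-155417694, minus strand: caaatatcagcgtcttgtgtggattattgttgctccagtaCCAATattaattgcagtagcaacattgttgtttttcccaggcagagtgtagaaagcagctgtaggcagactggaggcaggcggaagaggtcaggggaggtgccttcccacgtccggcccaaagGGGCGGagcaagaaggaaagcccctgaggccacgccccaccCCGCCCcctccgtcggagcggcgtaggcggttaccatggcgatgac
The first Slc20a1 window held CACGTG at −175 and −22 from the start, and the second held a GAANNTTC match at −91. Of all 32851 RefSeq windows, 6.02% held CACGTG, 6.69% GAANNTTC, 7.17% TTCNNGAA, 1.55% TGACGTCA, 12.4% TATAAA, 33.8% CCAAT and 32.7% GGGCGG. Xpr1's window held CCAAT and GGGCGG. A match describes letters, and binding there was not measured.

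**Figure D3:**
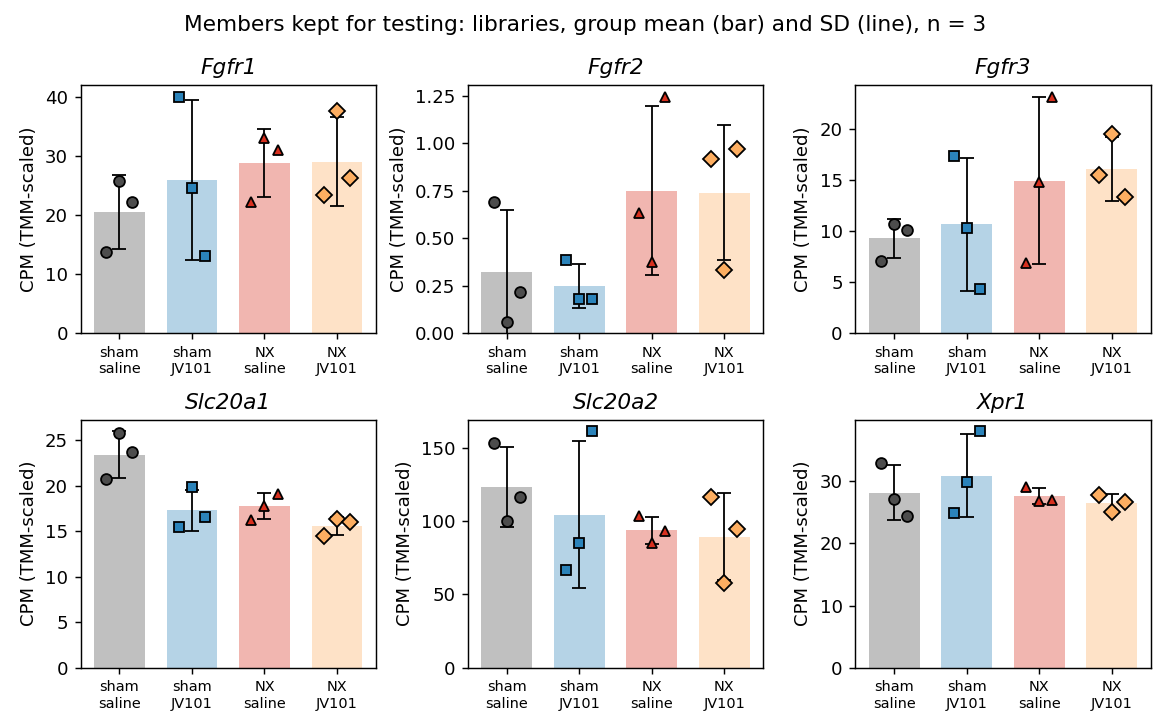
CPM of the 6 tested genes in each library, with the mean and SD of each group of 3. The 3 sham saline libraries of Slc20a1 sit above the other 9 of that gene on this scale.

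Slc20a2, the other sodium-dependent phosphate importer, had the highest level of the 9 genes, at 154, 100.2 and 117 CPM in sham saline. It read 66.4, 85.3 and 161 CPM in sham JV101, 103, 84.9 and 92.9 in NX saline and 117, 57.5 and 94.3 in NX JV101. The groups overlapped, and the extremes of 57.5 and 161 were both in JV101 groups. NX saline against sham saline gave −0.40 (SE 0.33, 95% interval −1.11 to 0.32, adjusted p = 0.994 by edgeR), and −0.21 without sham saline library 1. Reads in the exons it shares with Smim19 on the opposite strand cannot be told apart, since the sources used here do not state the strand setting.

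Xpr1, which lets phosphate out of the cell, was the steadiest of the tested genes in CPM. Its level was 33.0, 27.2 and 24.4 CPM in sham saline, 24.9, 29.9 and 38.0 with sham JV101, 29.1, 26.8 and 27.0 in NX saline and 27.8, 25.1 and 26.7 in NX JV101. The highest level was 1.56 times the lowest, against 1.79 times for Slc20a1, 3.06 times for Fgfr1 and 5.41 times for Fgfr3. In FPKM, Slc20a1 ran from 2.14 to 4.06 and Xpr1 more widely, from 2.28 to 5.29. The log2 fold change of Xpr1 was −0.03 (SE 0.17, 95% interval −0.39 to 0.33) in NX saline against sham saline. In NX JV101 against NX saline it was −0.06 (SE 0.17, interval −0.42 to 0.30).

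Fgfr1 and Fgfr3 were high together across libraries, and both were low where Slc20a2 was high. Over 12 libraries, Fgfr1 against Fgfr3 gave r = 0.870 (permutation p = 0.00025, adjusted p = 0.00142; rho = 0.867, permutation p = 0.00061), and r = 0.741 without the 2 farthest libraries. Fgfr1 against Slc20a2 gave r = −0.942 (permutation p = 3e-05, adjusted p = 0.000684; rho = −0.923, permutation p = 7e-05), and −0.882 without the 2 farthest. Fgfr3 against Slc20a2 gave r = −0.754 (permutation p = 0.00489, adjusted p = 0.0147; rho = −0.706, permutation p = 0.0131), and −0.739 without the 2 farthest. For Fgfr1 against Xpr1 r was −0.842 (permutation p = 0.00077, adjusted p = 0.00338; rho = −0.699, permutation p = 0.0141). That relation fell to −0.506 without sham JV101 library 3 and sham saline library 1. Over all 12 libraries with group means removed it was −0.931.

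Slc20a2 and Xpr1 were lower where fibroblast markers were higher. Slc20a2 gave r = −0.912 with them (permutation p = 0.00016, adjusted p = 0.00142; rho = −0.867, permutation p = 0.00041), and −0.830 without the 2 farthest libraries. Xpr1 gave r = −0.904 (permutation p = 4e-05, adjusted p = 0.000684; rho = −0.853, permutation p = 0.00058), and −0.823 without the 2 farthest. With the cardiomyocyte markers, Slc20a2 gave r = 0.807 (permutation p = 0.00142, adjusted p = 0.00578; rho = 0.762, permutation p = 0.0054), and 0.595 without the 2 farthest. The macrophage markers gave values close to those of the fibroblast markers. Slc20a2 gave r = −0.900 with them (permutation p = 0.0002, adjusted p = 0.00142). Xpr1 gave r = −0.916 (permutation p = 5e-05, adjusted p = 0.000684). All points share 1 total per library, so CPM values of abundant and scarce cell types are not independent. Slc20a1 and Fgfr2 passed an adjusted p of 0.05 with none of the other tested members.

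**Figure D4:**
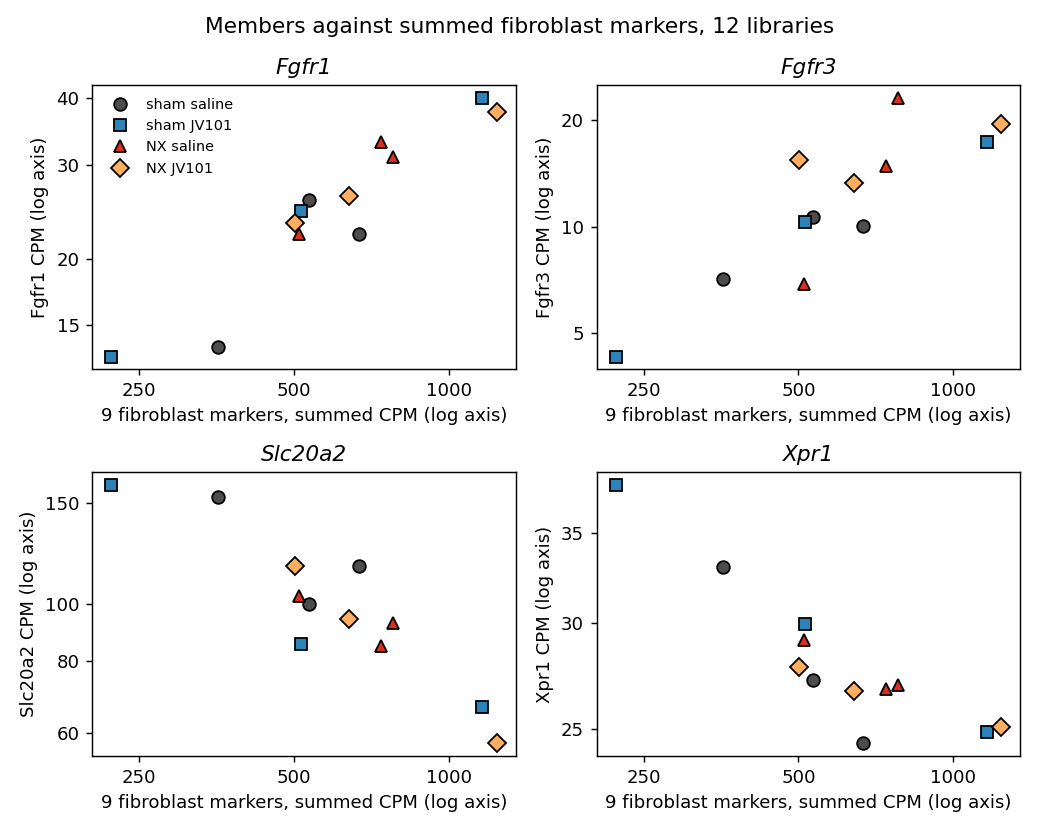
CPM of Fgfr1, Fgfr3, Slc20a2 and Xpr1 against the summed CPM of 9 fibroblast markers in the 12 libraries, both on log axes, marked by group. Fgfr1 and Fgfr3 are higher and Slc20a2 and Xpr1 lower toward libraries with more fibroblast marker RNA.

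For each tested gene, the 3 genes with the most similar pattern were taken by Pearson's r of log2 CPM over the 12 libraries, among 12053 genes. These are descriptions with no test. Fgfr1 was most like Myo5a (r = 0.991), Cd55 (0.989) and Axl (0.982), and Fgfr3 most like Msx1 (0.985), Acap2 (0.981) and Mgat4a (0.974). Slc20a2 was most like Kcnip2 (0.985), which encodes a potassium channel subunit of ventricular muscle, Reep1 (0.974) and Lgr6 (0.974). Xpr1 was most like Ss18l1 (0.952), Atp6v0a1 (0.945) and Tmem131l (0.944), and Fgfr2 most like Uimc1 (0.913), Cdc25a (0.899) and Ddx10 (0.888). Slc20a1 was most like Hsp90ab1 (0.966), a cytosolic chaperone, Zkscan3 (0.947) and Hsph1 (0.925), another chaperone. Hsp90ab1 read 1021, 1296 and 1177 CPM in sham saline, 746, 965 and 872 with sham JV101, 728, 864 and 913 in NX saline and 743, 869 and 812 in NX JV101. The 3 sham saline libraries of Hsp90ab1 lay above the other 9 in CPM. Because Hsp90ab1 was picked for its likeness to Slc20a1 in these same libraries, that is not a separate observation. Its FPKM values by library were not examined. With group means removed, Slc20a1 gave r = 0.958 with Hsp90ab1 and 0.775 with Zkscan3.

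**Figure D5:**
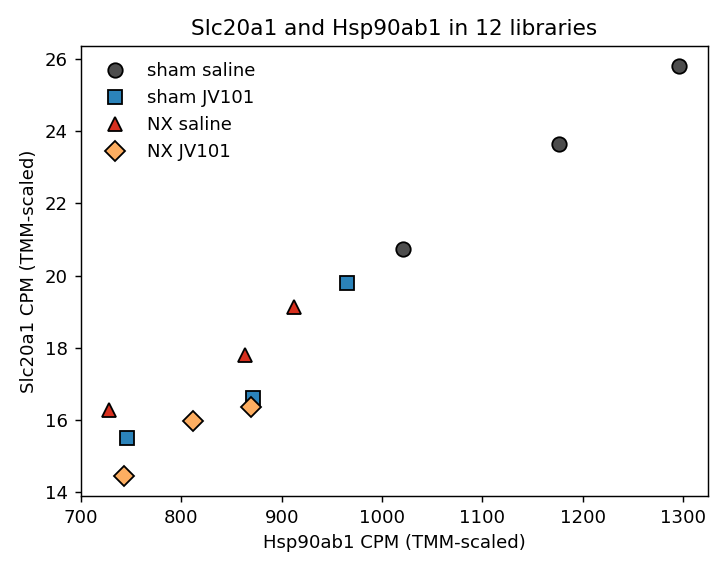
Slc20a1 CPM against Hsp90ab1 CPM in the 12 libraries, marked by group. The 3 sham saline libraries sit at the upper right of both axes, and the other 9 lie below them. Hsp90ab1 was picked for its likeness to Slc20a1 in these libraries.

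The other genes of the FGF and phosphate pathways were read from lists of ligands, relays and targets. None passed an adjusted p of 0.05 by edgeR in any of the 7 comparisons. Of the hormone and mineral genes, 6 of 13 in the table were tested, with 3 positive and 3 negative log2 fold changes in NX saline against sham saline and a median of 0.04. Fgf23 reached at most 7 counts in a library and Fgf21 at most 1. Pth1r, the parathyroid hormone receptor, averaged 3.33 ± 0.559 CPM (SD, n = 3) in sham saline against 5.95 ± 3.77 in NX saline. Of the paracrine ligands, 6 of 11 were tested, with 2 positive and 4 negative and a median of −0.10. Fgf1, an acidic FGF of heart muscle, was the most abundant, at 121 ± 13.5 CPM in sham saline against 111 ± 9.46 in NX saline.

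The 4 intracellular FGF homologous factors, which bind sodium channels and are not secreted, all had negative log2 fold changes in NX saline against sham saline, with a median of −0.74 (−0.21 on the log2(FPKM + 1) scale). In NX JV101 against NX saline all 4 were positive, with a median of 0.19, and both comparisons share the NX saline libraries. In sham JV101 against sham saline all 4 were negative, with a median of −0.77. The 6 atrial cardiomyocyte markers went the same way: 6 of 6 were negative in NX saline against sham saline (median −1.48) and 6 of 6 positive in NX JV101 against NX saline (median 1.69). In sham JV101 against sham saline these markers were negative in 6 of 6 (median −0.80). They summed to 46.1 to 2042 CPM in sham saline, 58.1 to 1233 with sham JV101, 273 to 536 in NX saline and 952 to 1581 in NX JV101, and their part in the values of these factors was not tested. Fgf12, with the widest spread of the 4, averaged 4.45 ± 4.68 CPM in sham saline and ran from 0.0452 to 9.41 CPM over the 12 libraries. Fgf14 averaged 1.49 ± 0.221 CPM in sham saline against 0.658 ± 0.197 in NX saline, a log2 fold change of −1.18 (SE 0.53, unadjusted p = 0.0448, adjusted p = 0.994 by edgeR). The abundant Fgf13 averaged 31.3 ± 5.00 and 25.4 ± 0.934 CPM in the same groups.

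Downstream of the receptors, 8 of 19 relay genes had positive and 11 negative log2 fold changes in NX saline against sham saline, with a median of −0.01. Grb2, an adaptor that couples receptors to RAS, averaged 53.4 ± 2.89 CPM in sham saline against 44.2 ± 4.43 in NX saline. Of the feedback inhibitors and ERK target genes, 11 of 14 were positive, with a median of 0.37, against 0.02 for all genes. Spry2, a sprouty inhibitor of receptor tyrosine kinase signalling, averaged 6.09 ± 0.614 CPM in sham saline against 9.10 ± 2.06 in NX saline, a log2 fold change of 0.58 (SE 0.20, unadjusted p = 0.0134, adjusted p = 0.994 by edgeR). Spred2, a relative of Spry2, averaged 14.6 ± 3.26 and 22.9 ± 7.07 CPM. In NX JV101 against NX saline, 8 of these 14 genes were positive, with a median of 0.16, and 12 of 14 on the log2(FPKM + 1) scale, where the median of all genes was 0.21. In NX saline against sham saline that scale left 11 of 14 positive, with a median of 0.11. Endothelial markers summed to 602 to 936 CPM in sham saline and 513 to 1642 in NX saline, and their part in these list values was not tested.

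Of the 19 heparan sulfate genes, 14 were positive and 5 negative in NX saline against sham saline, with a median of 0.14. Gpc3, a glypican, averaged 11.4 ± 5.12 CPM in NX saline against 5.37 ± 0.331 in NX JV101, a log2 fold change of −1.08 (SE 0.32, unadjusted p = 0.00531, adjusted p = 1.00 by edgeR). In the same comparison the 7 mesothelial markers were all negative (median −1.48). At an unadjusted p under 0.05 by edgeR there were 6 of 7, against 2.39% of all genes in either direction. The mesothelial sum averaged 85.6 ± 29.2 CPM in NX saline against 36.9 ± 3.38 with NX JV101 (SD, n = 3). The part of these markers in the Gpc3 difference was not tested. Of the other phosphate genes, 10 of 13 were tested, with 4 positive and 6 negative and a median of −0.09. Slc25a3, the mitochondrial phosphate carrier, had the highest mean FPKM of them and stood at 1237 ± 128 CPM in sham saline against 1077 ± 73.8 in NX saline. The kidney phosphate transporters Slc34a1 and Slc34a2 reached at most 1 and 5 counts. Of the calcineurin and NFAT genes, 10 of 11 were tested, with 6 positive and 4 negative and a median of 0.01. On the log2(FPKM + 1) scale the split turned to 3 positive and 7 negative, with a median of −0.02. Rcan1, which calcineurin activity induces, averaged 102 ± 26.6 CPM in sham saline against 62.9 ± 19.5 in NX saline (a difference of −0.70 in log2, SE 0.36, unadjusted p = 0.0755).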

How the data were processed

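RNA from 12 libraries, 3 in each of 4 groups by the labels, was sequenced by polyadenylated RNA-seq. The authors deposited a count per gene and library and an FPKM value. Reads were handled with fastp, HISAT2 and HTSeq on GRCm39, per the submitters' processing notes. The sources used here do not state tool versions, the annotation or whether counting used strand. In the deposited FPKM the total includes mitochondrial reads. FPKM equalled the count over length and total to within 1.45e-08 over 9643 genes.

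Counts were fitted over the 12 libraries with edgeR 4.0.16 quasi-likelihood tests (R 4.3.3, TMM factors, filterByExpr with a minimum count of 10 and minimum total of 15), which kept 14412 genes. p-values were adjusted by Benjamini-Hochberg over these, with a threshold of 0.05. SE is the log2 fold change over the square root of F. DESeq2 1.42.0 and limma 3.58.1 on log2(FPKM + 1) and log2(FPKM + 0.1) were alternatives. Correlations used 100000 permutations. Counting limits were 3 counts and cover counting error only. The fit was also run on counts simulated from each gene's mean and fitted spread. Those counts held no shared differences in cell content, so that run cannot show how the fit behaves under them. The members and lists were chosen with earlier results of these data known. Named genes were the members, and per list the 2 smallest unadjusted p in each of NX saline against sham saline and NX JV101 against NX saline and the 2 highest mean FPKM, of which some are printed, and the 3 most like genes per member. Of the listed pathway genes, Fgf15, Cyp24a1, Fgf3, Fgf4, Fgf20, Fgf22, Spry3 and Slc34a3 were not found by symbol in the deposited table. In GENCODE M21, exons of Fgfr1, Fgfr3 and Slc20a1 overlap antisense transcripts that were not analysed here.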

Additional observations from a re-analysis of the deposited data

How the results depend on the processing

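Of 898 fold changes under alternative settings, 838 kept direction and side of the threshold, 60 reversed and 0 became called. In the 24 reversals that left out no library, NX JV101 against NX saline gave Fgfr1 −0.00937 with RLE factors, −0.00977 with DESeq2, −0.00323 with a filter of 5 CPM in 3 libraries and −0.00311 with the replicate block. Fgfr2 gave −0.00829, −0.0135 and −0.0635 with RLE factors, DESeq2 and the block. Xpr1 in NX saline against sham saline was 0.00254 with that filter, which removed Fgfr2. With limma on log2 FPKM, at a pseudocount of 1 and 0.1, NX JV101 against NX saline gave Slc20a1 0.11 and 0.14, Slc20a2 0.20 and 0.21, and Xpr1 0.21 and 0.27. NX JV101 against sham JV101 gave Slc20a1 0.0373 and 0.0444 and Slc20a2 0.00944 and 0.0125. The interaction gave Fgfr3 0.30 and 0.45 and Xpr1 0.0357 and 0.0411, and JV101 averaged over surgeries gave Fgfr2 0.0127 and 0.0589. At a pseudocount of 1, the median log2 fold change of all genes was 0.21, 0.11, 0.14 and 0.14, in the order of these 4 comparisons. By edgeR with TMM factors it was 0.01, 0.00331, −0.03 and 0.02. FPKM divides by a total that includes mitochondrial reads, and the part of that total in these reversals was not tested.

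Leaving out each library in turn reversed 36 more values. Fgfr1 ranged from −0.64 to 0.15 (interaction), −0.0535 to 0.33 (JV101 averaged), −0.21 to 0.15 (NX JV101 against NX saline), −0.15 to 0.63 (NX JV101 against sham JV101) and −0.13 to 0.65 (sham JV101 against sham saline). Fgfr2 ranged from −0.73 to 0.95 (interaction), −0.45 to 0.37 (JV101 averaged), −0.33 to 0.53 (NX JV101 against NX saline) and −0.92 to 0.74 (sham JV101 against sham saline). Fgfr3 ranged from −0.47 to 0.47 (interaction), −0.12 to 0.38 (JV101 averaged), −0.23 to 0.55 (NX JV101 against NX saline) and −0.35 to 0.58 (sham JV101 against sham saline). Slc20a2 ranged from −0.0614 to 0.63 (interaction), −0.30 to 0.17 (NX JV101 against NX saline) and −0.46 to 0.24 (NX JV101 against sham JV101). Xpr1 ranged from −0.0560 to 0.11 (JV101 averaged), −0.13 to 0.10 (NX saline against sham saline) and −0.0430 to 0.27 (sham JV101 against sham saline). DESeq2 called 1 gene in NX saline against sham saline, 8 in NX JV101 against NX saline, 1 in NX averaged over injections and 7 in JV101 averaged over surgeries, where edgeR called 0 in each; none was a member. Correlations of same-numbered libraries' deviations ran from −0.503 to 0.250. Differently numbered libraries were not correlated for reference, so these values cannot decide whether the numbers pair the samples. With the replicate block 0 genes and 0 members passed in all 7 comparisons.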
